A study of Mus musculus with 4 samples.

Results

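Ccl2, Ccl7, Ccl8 and Ccl12 encode 4 closely related CC chemokines, small secreted proteins that draw monocytes out of the blood. They were picked from the table by gene symbol, with earlier results of these libraries known, and all 4 were among the 56748 genes listed. Each also passed the filter on low counts, which left 15167 genes for testing.

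CCL2, CCL7 and CCL12 act mainly through the receptor CCR2, which inflammatory monocytes carry and need in order to leave the bone marrow. Mouse CCL8 acts through CCR8, a receptor of T-cell subsets, and in tissue its gene is a marker of some resident macrophages. Tumor cells, fibroblasts, endothelium and macrophages can all make CCL2 when NF-κB is switched on by IL-1 or TNF. In metastatic breast cancer CCL2 is best known for bringing monocytes to the lung, where they become macrophages.

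All mice were BALB/cJ females injected through the tail vein with 4T1-FLuc cells, a luciferase-marked mouse TNBC line, at 7 weeks of age. The 2 control libraries came from lungs of mice given saline (the treatment label says PBS). The 2 treated libraries came from mice given cmLumiOpto/PARPi for 3 weeks, which is an AAV vector inside exosomes carrying a CD276 antibody, together with olaparib (50 mg/kg), which inhibits PARP, and the luciferase substrate ViviRen (2 mg/kg). The vector encodes a light-gated channel for the inner mitochondrial membrane. No library held the vector or olaparib alone, so their parts in any difference cannot be told apart, and nothing states whether a library is 1 mouse.

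Total counts ran from 15263375 to 16755228 per library, and 3 counts, taken as the smallest detected level, equalled 0.173 to 0.204 CPM (CPM is the count scaled to a common library size after TMM, and this floor covers counting error only). The labels call the material tumor cells, but it also held lung. Krt8, a keratin gene of epithelium that is not particular to the tumor, had 1144 and 1560 CPM in saline and 998 and 1640 CPM after treatment. Sftpc, which encodes a surfactant protein of alveolar type 2 cells, had 1020 and 176 CPM in saline and 6153 and 2092 CPM after treatment. Libraries of mixed tissue cannot tell fewer cells of a type from less RNA per cell.

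The 4 genes lie on the forward strand of chromosome 11 in the GENCODE M21 annotation of GRCm38. Ccl2 (ENSMUSG00000035385) runs from 82035571 to 82037453, and Ccl7 (ENSMUSG00000035373) from 82045712 to 82047525. Ccl12 (ENSMUSG00000035352) runs from 82101845 to 82103400 and Ccl8 (ENSMUSG00000009185) from 82115185 to 82116799. The start of Ccl8 is thus 79614 bases from that of Ccl2. Every one has 3 coding exons. The positions in the deposited table were lower by 109174 bases for each of the 4 genes, and the submitters' notes name mm39, whereas the published methods name GRCm38.

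The defining feature of the family is a pair of neighboring cysteines near the start of the mature protein. It is shown here because the levels below depend on reads being told apart between close relatives. Each line gives 60 coding bases from the second coding exon, with the codons of both cysteines in capitals.
Ccl2, chr11:82036491-82036550: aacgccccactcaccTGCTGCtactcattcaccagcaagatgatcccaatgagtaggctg
Ccl7, chr11:82046523-82046582: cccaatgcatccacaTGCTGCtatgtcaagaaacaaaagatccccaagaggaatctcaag
Ccl12, chr11:82102619-82102678: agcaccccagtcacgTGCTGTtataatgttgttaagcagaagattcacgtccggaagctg
Ccl8, chr11:82116041-82116100: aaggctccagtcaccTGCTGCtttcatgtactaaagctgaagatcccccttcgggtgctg

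In these windows Ccl8 and Ccl12 matched at 42 of 60 bases and Ccl7 and Ccl8 at 21. Over whole coding sequences, pairs were 68.8% (Ccl7 and Ccl8) to 72.1% (Ccl2 and Ccl7) identical in aligned bases. Of each gene, only the transcript with the longest coding sequence was compared. The longest stretch that any pair of these shared without a mismatch was 23 bases, between Ccl2 and Ccl7. The length of the sequencing reads is not given in the sources used here.

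Promoter windows were found in RefSeq (GRCm38.p6) for 2 of the 4 genes, Ccl12 and Ccl8. They are shown because these neighbors differed in how steady they were among libraries. Each is the 250 bases before the transcript start, forward strand, with TATAAA in capitals.
Ccl12, chr11:82101595-82101844: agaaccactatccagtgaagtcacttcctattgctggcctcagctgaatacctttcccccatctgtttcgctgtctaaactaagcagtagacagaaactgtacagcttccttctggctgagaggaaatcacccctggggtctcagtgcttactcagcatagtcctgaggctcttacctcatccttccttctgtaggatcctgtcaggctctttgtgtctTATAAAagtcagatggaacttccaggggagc
Ccl8, chr11:82114935-82115184: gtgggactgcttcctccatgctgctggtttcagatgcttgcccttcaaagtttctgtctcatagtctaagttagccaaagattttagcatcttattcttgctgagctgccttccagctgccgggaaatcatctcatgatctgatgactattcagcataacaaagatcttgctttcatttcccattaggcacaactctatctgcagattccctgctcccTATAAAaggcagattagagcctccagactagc

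Both windows held TATAAA, whose first base lay at -31 in Ccl12 and -32 in Ccl8, against 12.4% of 32851 promoter windows of that length with the motif on either strand. Neither window held the NF-κB consensus GGG[AG]NN[CT][CT]CC (7.25% of all windows), the AP-1 letters TGANTCA (6.75%) or the STAT letters TTCNNNGAA (7.02%). The interferon-stimulated response element (2.98%), the GC box GGGCGG (32.7%) and CCAAT (33.8%) were also absent from both. Looser forms of these motifs were not searched. Both strands were searched, and no motif hits in these windows overlapped.

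After cmLumiOpto/PARPi, 3 of the 4 genes (Ccl2, Ccl7 and Ccl12) stood 3.48- to 4.46-fold above saline in RNA level, with no overlap between the groups. The fourth, Ccl8, varied more within each group than between them. Treated libraries were both above saline in 27.4% of all tested genes and both below in 27.8%. Since the genes were chosen on this contrast, its values are described and not tested.

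Ccl2, the main CCR2 ligand, had 144 and 112 counts in saline and 469 and 517 after treatment. These equal 9.03 and 7.63 CPM (8.33 ± 0.989, SD, n = 2) against 27.0 and 31.1 CPM (29.1 ± 2.90, SD, n = 2). The treated libraries were both well above the saline ones, the lower of them 2.99 times the higher saline library. The log2 fold change from edgeR was 1.80 (standard error 0.21), or 3.48-fold.

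Ccl7, which also binds CCR1 and CCR3 and so can attract eosinophils, was the steadiest. It had 55 and 47 counts in saline and 257 and 248 after treatment. In CPM this was 3.45 and 3.20 against 14.8 and 14.9. Within each group the libraries were nearly equal, and the lower treated library was 4.29 times the higher saline library. The log2 fold change was 2.16 (standard error 0.26), or 4.46-fold, the largest of the 4 genes.

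Ccl12, a mouse chemokine that shares CCR2 with CCL2, had 114 and 56 counts in saline and 444 and 335 after treatment. The levels were 7.15 and 3.82 CPM in saline against 25.6 and 20.2 CPM. The saline libraries differed by 1.87 times, less than the 2.82 times that separated the groups at their closest. The log2 fold change was 2.06 (standard error 0.35), or 4.16-fold.

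Ccl8, the CCR8 ligand, had 466 and 52 counts in saline and 1259 and 187 after treatment. The levels were 29.2 and 3.54 CPM in saline and 72.5 and 11.3 CPM after treatment. The groups overlapped, because saline replicate 1 was above treated replicate 2. Replicate 1 exceeded replicate 2 by 8.25 times in saline and by 6.44 times after treatment. Its log2 fold change of 1.35 had a standard error of 1.11. The value depended on single libraries, being 3.54 without saline replicate 1, 0.50 without saline replicate 2, 2.12 without treated replicate 2 and -0.55, the opposite direction, without treated replicate 1.

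**Figure D1:**
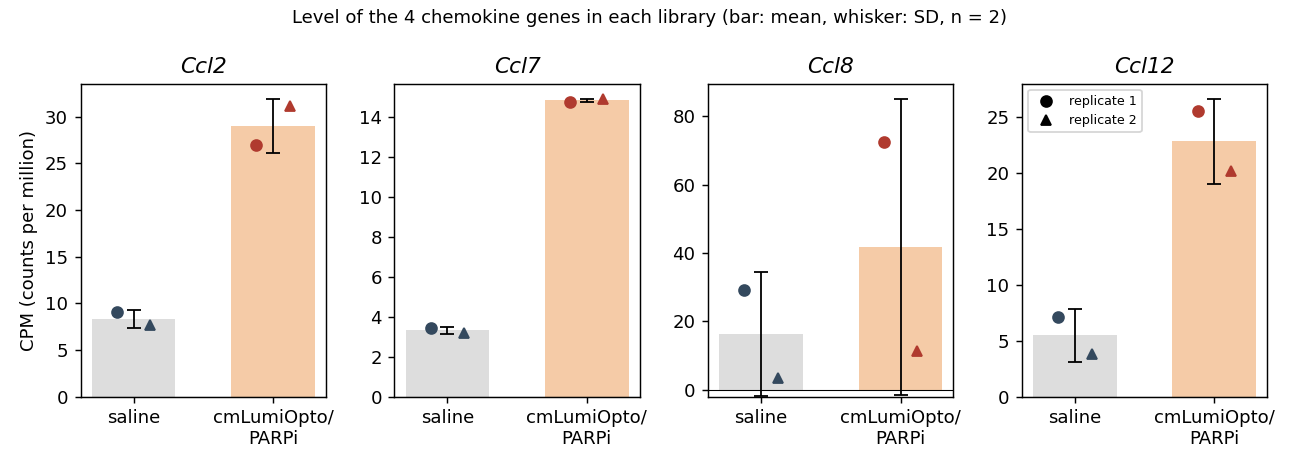
CPM of Ccl2, Ccl7, Ccl8 and Ccl12 in the 2 saline and 2 cmLumiOpto/PARPi libraries, each panel with its own linear axis, with circles for replicate 1, triangles for replicate 2, bars for means and whiskers for SD. Ccl2, Ccl7 and Ccl12 are higher in both treated libraries, while for Ccl8 the saline circle (29.2 CPM) lies above the treated triangle (11.3 CPM).

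A log2 fold change of 1 or more was seen in all 4 genes and in 7.19% of tested genes. Their values fell at the 97.7th (Ccl2), 98.7th (Ccl7), 95.7th (Ccl8) and 98.4th (Ccl12) percentile of the fold changes of all tested genes, whose median was 0.02. The 4 genes are short, 511 to 1138 bases in the table against a median of 4127 bases, and short genes had higher fold changes. Among the 854 tested genes of that length range the median was 0.38 and 14.2% reached 1. Within that range the 4 genes fell between the 91.6th (Ccl8) and 95.8th (Ccl7) percentile. The part of length in the result was not tested.

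**Figure D2:**
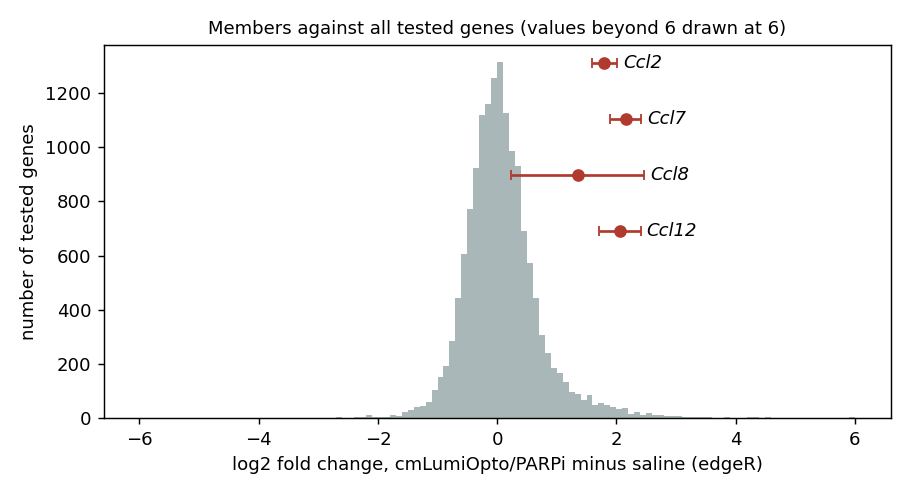
Histogram of log2 fold changes (cmLumiOpto/PARPi minus saline) of the 15167 tested genes, with Ccl2, Ccl7, Ccl8 and Ccl12 as points with standard errors at arbitrary heights. All 4 points lie right of the bulk, from 1.35 for Ccl8 to 2.16 for Ccl7, and the bar of Ccl8 is the widest.

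Levels of different genes were compared per kilobase (FPKM, from the TMM-scaled counts and the gene length of the table). In saline, Ccl8 had 57.2 and 6.93 FPKM, Ccl12 13.3 and 7.11, Ccl2 7.94 and 6.71, and Ccl7 4.31 and 4.00. Thus only Ccl7 was clear of the gene above it, since Ccl8, Ccl12 and Ccl2 overlapped in that order. After treatment Ccl8 had 142 and 22.0 FPKM, Ccl12 47.6 and 37.5, Ccl2 23.7 and 27.3, and Ccl7 18.5 and 18.6. Ccl12, Ccl2 and Ccl7 were separated from each other there, and the range of Ccl8 spanned all but Ccl7. The length in the table for Ccl2 is 1138 bases, while its coding transcript has 813. With the latter its mean was 10.2 FPKM in saline, the same as the 10.2 FPKM of Ccl12, and 35.7 FPKM after treatment, against 42.6 FPKM for Ccl12, where the libraries of both genes then overlapped (33.2 and 38.3 against 47.6 and 37.5).

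**Figure D3:**
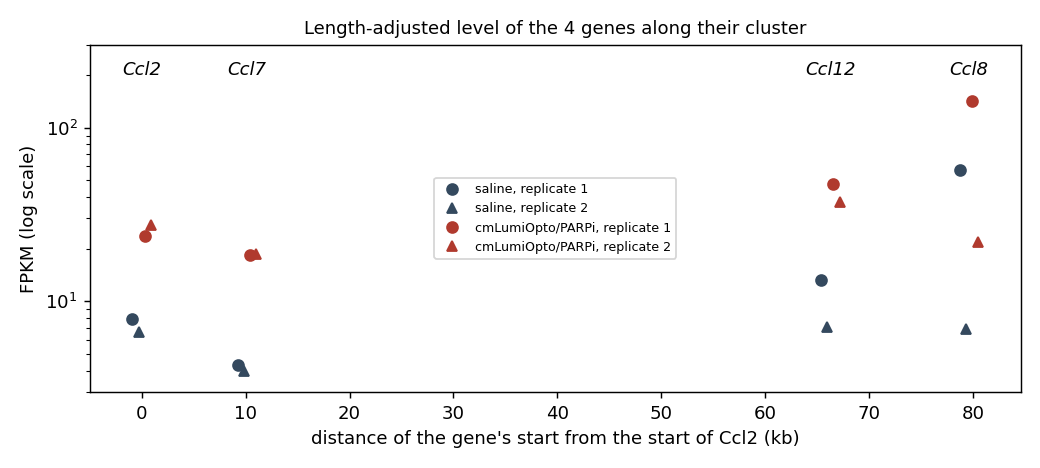
FPKM (log axis) of the 4 genes against the distance of each start from that of Ccl2 in kilobases (points of 1 gene are set slightly apart sideways), with saline in blue, cmLumiOpto/PARPi in red, circles for replicate 1 and triangles for replicate 2. At Ccl2 and Ccl7 the libraries of a group sit close together, at Ccl12 the groups stay apart, and at Ccl8 the circles (57.2 and 142 FPKM) are above both triangles (6.93 and 22.0 FPKM).

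The mix of the 4 transcripts in raw counts, which favor longer genes, followed the replicate number more than the treatment. Ccl8 made up 59.8% of their summed counts in saline replicate 1 (exact 95% binomial interval 56.3% to 63.3%) and 51.8% in treated replicate 1 (49.8% to 53.8%). In the libraries numbered 2 its share was 19.5% in saline (14.9% to 24.7%) and 14.5% after treatment (12.6% to 16.6%). The count share of Ccl2 was 41.9% and 40.2% there, against 18.5% and 19.3% in the libraries numbered 1. Per length, Ccl2 had 27.1% and 25.9% in the libraries numbered 2, below the 28.7% and 35.6% of Ccl12, and 9.59% and 10.2% in those numbered 1. That order in the libraries numbered 2 rests on the length of 1138 bases for Ccl2. With its coding transcript of 813 bases, Ccl2 was above Ccl12 there. The levels were then 9.39 against 7.11 FPKM in saline and 38.3 against 37.5 FPKM after treatment. The share of Ccl8 per length was 69.1% and 61.2% in the libraries numbered 1 and 28.0% and 20.9% in those numbered 2. These intervals cover counting error only. The summed level of the 4 genes was 48.9 and 18.2 CPM in saline and 140 and 77.4 CPM after treatment, with no overlap.

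**Figure D4:**
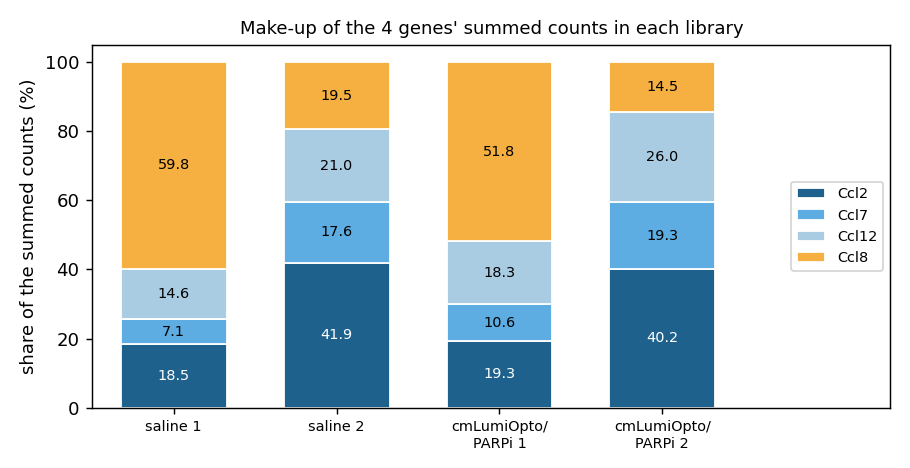
Share (%) of Ccl2, Ccl7, Ccl12 and Ccl8 in the summed counts of the 4 genes, 1 stacked bar per library. Ccl8 holds 59.8% and 51.8% in the libraries numbered 1 and 19.5% and 14.5% in those numbered 2, in either group.

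Across the 4 libraries the centered log2 CPM of Ccl7 differed from that of Ccl2 by a root mean square of 0.19, that of Ccl12 by 0.33 and that of Ccl8 by 1.42, against a median of 0.93 over all tested genes. By this measure Ccl7 ranked 11th and Ccl12 98th in likeness to Ccl2, and Ccl8 14687th. The measure includes the difference between groups on which these genes were chosen, so their closeness partly restates that choice. The genes most like Ccl2 were Gjb2 (distance 0.07), a gap junction gene, Gm5141 (0.15), the unnamed ENSMUSG00000120362 (0.16), P2rx5 (0.16), an ATP-gated channel gene, and Gpnmb (0.16), a lysosomal glycoprotein gene of lipid-laden macrophages. Of these, only Gpnmb had more than 3 CPM in any library, with 16.9 and 10.6 CPM in saline and 44.6 and 52.9 after treatment. In saline, Gjb2 had 0.188 and 0.136 CPM, ENSMUSG00000120362 0.125 and 0.136, and P2rx5 0.188 and 0.204. These levels are at or under the smallest detected level, so the distances of these genes depend on the prior count and say little. With 4 libraries many genes come this close.

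The genes most like Ccl8, looked up after its values were seen, were Cxcr6 (distance 0.09), a chemokine receptor gene of T and NK cells, Klk1 (0.17), Xcr1 (0.18), a receptor gene of cross-presenting dendritic cells, Igha (0.18), the IgA heavy chain gene of plasma cells, and Colgalt2 (0.19). Cxcr6 had 6.84 and 0.613 CPM in saline and 16.4 and 2.53 CPM after treatment. Igha had 28.5 and 3.27 CPM against 50.8 and 9.09 CPM. Like Ccl8, both were high in the libraries numbered 1 of either group. In saline replicate 2, Klk1 (0 CPM), Xcr1 (0.136 CPM) and Colgalt2 (0.0681 CPM) were under the smallest detected level. Whether any of these genes shares a cell source with Ccl8 was not tested.

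No gene of the whole table had an adjusted p under 0.05 in edgeR's quasi-likelihood test, so 0% is the background in either direction, and none of the 251 tested genes in the lists below did. At an unadjusted p under 0.05, 9.21% of tested genes were higher and 12.0% lower after treatment, 3221 in all. DESeq2 called 1011 genes at an adjusted p under 0.05, of which 32 were in the lists. Therefore none of the genes below is said to have changed, and their values are given with the side on which they lay.

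Among the receptors, Ccr2 had 798 and 114 counts in saline and 1337 and 1010 after treatment, the latter 77.0 and 60.8 CPM. Both treated libraries were above both saline ones, but the saline libraries differed widely, and the log2 fold change was 1.25 (standard error 0.75, adjusted p = 0.379 from edgeR). Ccr1, a receptor of CCL7, also lay above saline, with 92.2 and 59.4 CPM against 98.6 and 92.6 (log2 fold change 0.33). The CCL8 receptor gene Ccr8 overlapped and stayed under 1 CPM throughout. Ccr3 had 1 and 1 counts in saline and 5 and 8 after treatment, too few to test. None of Ccr2, Ccr1 and Ccr8 passed an unadjusted p of 0.05 in edgeR's test.

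The receptors that capture chemokines without signaling overlapped between groups where they were tested. Ackr2, which clears inflammatory CC chemokines, had 10.4 and 3.20 CPM in saline and 10.3 and 4.51 CPM after treatment. Ackr1 (log2 fold change -0.92) and Ccrl2 (0.52) overlapped too, and Ackr4 had too few counts to test.

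Other CC chemokine genes of chromosome 11 did not all take the same side. Ccl11, which lies between Ccl7 and Ccl12 and encodes the eosinophil attractant eotaxin, had 15 and 11 counts in saline and 40 and 34 after treatment, or 0.941 and 0.750 CPM against 2.30 and 2.05. Its log2 fold change was 1.35 (unadjusted p = 0.0304, adjusted p = 0.200 from edgeR). Ccl3 was above saline too (1.21, adjusted p = 0.247 from edgeR). Ccl4 (0.81), Ccl5 (1.04) and Ccl9 (0.18) overlapped. Ccl6, the most abundant of them by CPM, had 319 and 585 CPM in saline and 241 and 570 CPM after treatment. Ccl1 had too few counts to test. Ccl5, like Ccl8, was higher in the libraries numbered 1, with 20.7 and 2.998 CPM in saline and 37.2 and 11.7 after treatment, whereas Ccl6 and Ccl9 were higher in those numbered 2.

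The cytokines that induce CCL2 were measured too. Il1b had 24.4 and 13.4 CPM in saline and 44.4 and 26.8 CPM after treatment, a log2 fold change of 0.91 (unadjusted p = 0.0485, adjusted p = 0.233 from edgeR). Tnf lay above saline at a low level, 1.38 and 0.136 CPM against 2.07 and 1.44. Csf1, which sustains macrophages, and Tgfb1 were slightly below saline (log2 fold changes -0.13 and -0.19). Of the 12 cytokines listed, 9 were tested, 1 was higher at an unadjusted p under 0.05 and 0 lower. Ifng, Il13 and Il17a were too low, Il17a having 0 counts in all 4 libraries.

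In the 14 receptors and adaptors that sense these cytokines, 2 were lower at an unadjusted p under 0.05 and 0 higher. They were Il6ra (86.5 and 91.0 CPM in saline against 56.2 and 55.5) and Il1r1 (138 and 156 against 102 and 85.6). Myd88, the adaptor of IL-1 and Toll-like receptors, and Ifngr2 lay above saline (0.27 and 0.41). For Ifngr2 the margin was narrow, with 73.3 and 47.2 CPM in saline against 73.7 and 86.6. The list's median log2 fold change was -0.17.

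The 16 transcription factors that act on Ccl2 were split, with 3 higher and 4 lower at an unadjusted p under 0.05. Cebpd, an acute-phase factor, had 25.4 and 16.6 CPM in saline and 41.8 and 35.3 CPM after treatment, and Irf3 29.6 and 23.2 against 45.7 and 38.4. Relb was the third on that side (log2 fold change 0.47). Stat3 had 321 and 355 CPM in saline and 223 and 252 CPM after treatment, and Sp1 120 and 131 against 92.2 and 98.1. Of 12 NF-κB feedback and target genes, 0 were higher and 1 lower at that threshold. The one lower was Tnfaip3, an inhibitor of NF-κB, with 68.3 and 59.3 CPM in saline and 46.6 and 50 after treatment. Tnfaip2 lay below saline (-0.35), while Icam1 (0.97) and Ptgs2 (0.36) were above by a narrow margin. Icam1 had 66.2 and 32.6 CPM in saline against 126 and 67.1, and Ptgs2 28.2 and 40.1 against 41.1 and 46.5.

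Factors that bind and destabilize chemokine mRNA included 3 of 7 genes that were lower at an unadjusted p under 0.05, and 0 higher. Zfp36l2, of the tristetraprolin family, had 577 and 584 CPM in saline and 241 and 320 CPM after treatment, a log2 fold change of -1.05 (unadjusted p = 0.00142, adjusted p = 0.138 from edgeR). Hnrnpd (-0.59) and Khsrp (-0.60), which bind AU-rich elements, were lower as well. Zfp36 (0.48), Zfp36l1 (0.08), the endonuclease gene Zc3h12a (-0.12) and the stabilizing factor gene Elavl1 (-0.01) had overlapping groups.

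Of 6 proteases able to cleave these chemokines, 2 were higher and 2 lower at an unadjusted p under 0.05. Mmp2, whose product clips CCL7, had 180 and 118 CPM in saline and 35.3 and 54.3 CPM after treatment (log2 fold change -1.74). Mmp14, an activator of MMP2, was also lower (-0.64). Mmp12, the macrophage elastase gene, had 38.9 and 24.1 CPM in saline and 67.3 and 164 CPM after treatment (1.88). Dpp4 was higher (1.71), and Mmp3 (-0.41) and Mmp9 (0.10) overlapped. In the 14 genes of signaling below CCR2, 0 passed an unadjusted p of 0.05. Gnai3 (-0.37) and Jak2 (-0.41) lay below saline.

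Of 14 interferon-stimulated genes, 4 were higher at an unadjusted p under 0.05, 0 lower, and the median log2 fold change was 1.27. That median was 0.24 without treated replicate 1 and 0.73 without saline replicate 2. Usp18 had 12.8 and 6.68 CPM in saline and 36.4 and 16.1 CPM after treatment, and Isg15 24.96 and 11.4 against 85.0 and 29.96. The summed level of the list overlapped between groups, with 947 and 615 CPM in saline and 1517 and 507 CPM after treatment, highest in the libraries numbered 1 as Ccl8 was.

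Markers of the cells that CCR2 ligands attract were not uniformly higher. The 9 classical monocyte markers summed to 2101 and 1650 CPM in saline and 3923 and 2790 CPM after treatment, and 0 of the 9 was without counts. Lyz2 accounted for most of this, with 1693 and 1141 CPM against 3619 and 2441. The higher sum thus follows that gene and does not describe the other markers. Ly6c2, a defining marker of these monocytes, had only 2.32 and 0.545 CPM in saline and 2.99 and 1.44 after treatment. F13a1 (150 and 274 CPM against 45.4 and 118) and Vcan were lower at an unadjusted p under 0.05, so 1 marker was higher and 2 lower there. The 12 macrophage markers summed to 4836 and 4160 CPM in saline and 4725 and 4392 CPM after treatment, which overlapped. Apoe, the most abundant, had a log2 fold change of 0.13, and Arg1 of -0.34. At an unadjusted p under 0.05, Trem2 (0.92) and Cd68 (0.39) were higher and Mrc1 (-1.06) and Mertk (-0.59) lower. The resident perivascular macrophage list was lower, 369 and 558 CPM against 233 and 318, with Cd209f at 0 counts and F13a1 and Stab1 the most abundant. The median log2 fold change of the list was 0.33, but it turned to -0.61 without treated replicate 1, -0.19 without treated replicate 2 and -0.02 without saline replicate 2. Of its 7 tested genes, 1 was higher at an unadjusted p under 0.05 and 3 were lower. The higher one was Lyve1 (28.0 and 25.6 CPM against 48.2 and 34.7).

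Summed levels of lung epithelial and fibroblast markers also did not overlap between the groups. The 8 alveolar type 2 markers summed to 1719 and 464 CPM in saline and 8328 and 2973 CPM after treatment, and 7 of 8 were higher at an unadjusted p under 0.05. The 7 airway markers summed to 1156 and 83.4 CPM against 5709 and 3190, with 6 of 7 higher, led by the club cell genes Scgb1a1 and Cyp2f2. The 11 fibroblast markers summed to 5316 and 3644 CPM against 2194 and 2081, with 6 lower and 2 higher, and Col1a1 and Col3a1 led them. Markers listed for tumor epithelium overlapped, with 3221 and 3562 CPM against 2863 and 3990. Lung epithelium can express such genes too, so these sums do not measure tumor content. Between the saline libraries, alveolar type 2 and airway markers differed many-fold, with replicate 1 higher. Replicate 1 was also higher in the 4 chemokine genes, by 8.25 times for Ccl8, 1.87 for Ccl12, 1.18 for Ccl2 and 1.08 for Ccl7. Whether the share of lung tissue had a part in the higher levels after treatment was not tested.

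**Figure D5:**
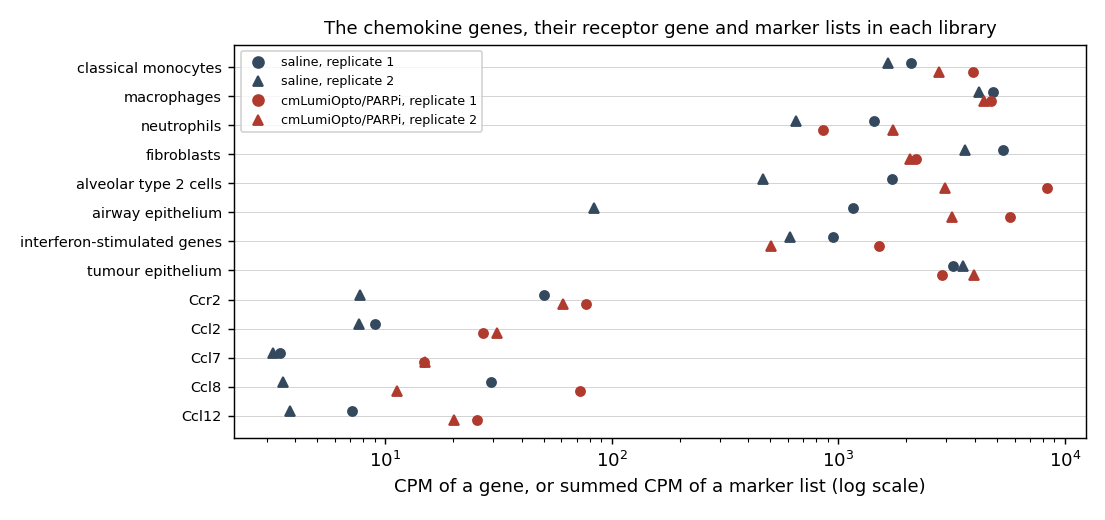
CPM of Ccl2, Ccl7, Ccl8, Ccl12 and Ccr2 and summed CPM of 8 gene lists (log axis), with saline in blue, cmLumiOpto/PARPi in red, circles for replicate 1 and triangles for replicate 2. Ccl2 and Ccl7 keep each group's libraries together, and Ccl8 does not. The alveolar type 2 and airway lists are spread within saline (1719 and 464, 1156 and 83.4 CPM) and higher after treatment.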

How the data were processed

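RNA of metastasis-bearing lungs was sequenced in 4 libraries. The authors mapped reads with HISAT2 and deposited counts per gene, not normalized. The counting tool and its strand setting are not given in the sources used here. The authors' fold changes were not used. Groups and replicate numbers come from the sample titles, and p-values measure only the spread between these libraries. The genes described and all 31 gene lists were chosen with earlier results of these data known.

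Counts were analyzed with edgeR 4.0.16, using TMM and filterByExpr with a minimum count of 10. The quasi-likelihood test was run with the legacy option, Benjamini-Hochberg adjustment over 15167 genes and a threshold of 0.05. The standard error is the log2 fold change over the square root of F. Log2 CPM used a prior count of 2. The test was checked on simulated counts, where the share of false calls was above the nominal threshold. Genes named were every gene of pathway lists of up to 7, up to 2 per direction with the smallest p and no overlap in longer pathway lists, up to 2 of the most abundant of each cell marker list, and the 5 nearest to Ccl2. Further genes were named after their values were seen. One listed gene is not reported here. Alternatives were DESeq2 1.42.0, other scalings, no filter, the fit without the legacy option, a replicate block and leaving out each library. Coordinates, coding sequences (GENCODE M21, GRCm38) and promoters (RefSeq, GRCm38.p6) were matched by identifier or symbol.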

Additional observations from a re-analysis of the deposited data

How the results depend on the processing

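The log2 fold changes of Ccl2, Ccl7 and Ccl12 were above 0 under all 10 alternatives. These genes were chosen on this contrast and their groups did not overlap, so a stable sign is no further evidence. Leaving out single libraries gave 1.67 to 1.91 for Ccl2, 2.09 to 2.20 for Ccl7, 1.66 to 2.56 for Ccl12 and -0.55 to 3.54 for Ccl8, whose direction turned without cmLumiOpto/PARPi replicate 1. Without scaling beyond library totals, Ccl7 had 2.22, a move above the very small spread of its replicates. Over the whole table, 2000 genes passed the threshold without the filter on low counts, 1011 with DESeq2 and 0 to 31 when 1 library was left out. Of the listed genes, 94 passed without the filter, 32 with DESeq2 and 0 to 8 when 1 library was left out. The cause was not tested.

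A replicate block in the fit gave 1822 calls over the table, of which 80 fell in the lists. The log2 fold change of Ccl8 became 1.46 with a standard error of 0.18, against 1.11 without the block, and those of Ccl2, Ccl7 and Ccl12 were 1.80, 2.16 and 2.10. Same-numbered libraries deviated together across genes (Spearman's rho = 0.298, 15167 genes, which are not independent replicates). Nothing states that a number marks a shared animal, litter or day. Whether same-numbered libraries share more than the number is therefore not known.

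With 2 libraries per group, counts of 47 to 1259 for the 4 genes left the spread between libraries, rather than counting error, as the larger uncertainty for Ccl8.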

Other observations

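Lists of other cells that the tissue could hold were not part of the comparisons above. T-cell markers summed to 64.0 and 24.9 CPM in saline and 132 and 38.9 CPM after cmLumiOpto/PARPi, with 0 of 10 past an unadjusted p of 0.05. Cd8a (14.7 and 8.38 CPM against 26.4 and 6.38) and Lck, the most abundant, overlapped. NK-cell markers summed to 28.7 and 24.1 CPM against 72.4 and 17.4, which overlapped. Of 7 tested, 6 had a fold change above 0, and 1, the granzyme gene Gzma (log2 fold change 2.81), was higher at an unadjusted p under 0.05. Their median of 1.24 was -0.09 without treated replicate 1. Of the most abundant, Nkg7 lay higher (1.29) and the perforin gene Prf1 lower (-0.65), both with overlap. B-cell markers summed to 46.3 and 4.97 CPM against 53.7 and 31.7, with 2 of 6 higher, and Ighm had 41.4 and 2.86 CPM against 42.4 and 23.6. In T and B cells the libraries numbered 1 were higher within each group, as for Ccl8. Dendritic cell markers summed to 32.4 and 19.5 CPM against 64.2 and 27.3, with 1 of 7 tested higher.

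Neutrophil markers overlapped (1432 and 648 CPM against 853 and 1738), led by S100a9 and S100a8, with 1 of 11 lower at an unadjusted p under 0.05. Eosinophil, basophil and mast cell markers, cells that CCL7 and CCL11 can attract, were mostly too low to test (2 of 11 tested), and Epx had 0 counts in all 4 libraries. The 9 alveolar macrophage markers summed to 162 and 479 CPM against 176 and 200, with Chil3 at 116 and 423 CPM against 76.2 and 124, and Fabp4 at 21.9 and 32.0 CPM against 32.8 and 24.9. Of its 8 tested genes, 3 were higher at an unadjusted p under 0.05 (Ear2, Car4 and Atp6v0d2) and 0 lower, and the median was 0.64. Non-classical monocyte markers overlapped (693 and 622 CPM against 620 and 724), led by Ace and Spn, with 1 of 7 tested higher.

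Endothelial markers overlapped (524 and 409 CPM against 811 and 426), with Pecam1 at 144 and 118 CPM against 208 and 132. Mesothelial markers (145 and 244 CPM against 255 and 221, led by Msln), red cell genes (1113 and 356 CPM against 989 and 1239, led by Hbb-bs) and cardiac muscle genes (101 and 92.5 CPM against 67.6 and 156, led by Tnnt2) overlapped as well. Alveolar type 1 markers, led by Ager (136 and 47.6 CPM against 474 and 225), were higher after treatment, with 3 of 6 at an unadjusted p under 0.05.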
